A study of Caenorhabditis elegans with 4 samples.

Results

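The 725 binding sites of the nuclear hormone receptor NHR-76 that lie on chromosome III of Caenorhabditis elegans are described here, out of 3635 sites in the combined peak list of the study. They are all lines of that list whose chromosome field reads III, a rule that uses no q-value, width or overlap. The 2 ChIP replicates have peak lists of their own, with 731 of 3676 peaks on III in replicate 2 and 314 of 1562 in replicate 1. Chromatin immunoprecipitation followed by sequencing (ChIP-seq) recovers the DNA to which a protein is bound in crosslinked chromatin, and a peak is a stretch in which such DNA is enriched. Each peak carries a q-value, its p-value after correction for the number of stretches examined, so a smaller q-value marks a stronger peak. All coordinates are in build WormBase WS180.

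The 2 ChIP samples came from whole L4 hermaphrodites, larvae of the last stage before adulthood, of strain OP203. Every sample carried the mutation unc-119(ed3) and the transgene wgIs203, introduced by bombardment, in which nhr-76 is joined to TY1, EGFP and FLAG tags and accompanied by an unc-119 rescue. Per the labels, the fusion protein follows the normal expression pattern of nhr-76, worms were grown at 20 °C and fixed with 2% formaldehyde, and an antibody against the tag was used. The 2 input samples, total DNA of the same strain, have no peak list, and no untagged strain was among the samples. ChIP and input samples were told apart by their titles. The free-text descriptions go against the titles: they name the antibody on the input samples and input DNA on the ChIP samples. No label states whether the replicates came from separate cultures. Nor is it stated whether the replicate 2 list was called on the reads of that replicate alone. Whether the combined list was called on the reads of both replicates is not stated either. Of the 725 combined peaks on III, 536 are identical to a replicate 2 peak. If the replicate 2 list also holds replicate 1 reads, the comparisons of the 2 replicate lists given here are not between independent samples. If the combined list holds replicate 2 reads alone, its values say nothing of replicate 1. Which of these holds, if either, was not tested.

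Nuclear hormone receptors are transcription factors that bind DNA through zinc fingers and respond, in many family members, to small lipophilic ligands. The family is greatly expanded in C. elegans, and NHR-76 is known in this worm as an intestinal factor in the neural control of body fat, where it acts on transcription of the lipase gene atgl-1. The RefSeq gene table of assembly WBcel235 lists atgl-1 on chromosome III and nhr-76 itself on chromosome IV. That assembly is not the build of the peaks, so no peak was assigned to a gene, and whether a peak lies at atgl-1 was not analysed here. Peaks are therefore named by position. Worm autosomes have a centre rich in widely expressed genes between arms richer in repeats.

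Chromosome III was the most densely occupied chromosome in each of the 3 lists, although the combined and replicate 2 lists are largely identical. It carried 52.9 peaks per Mb in the combined list, compared with 31.0 to 37.3 on each of the other 5 chromosomes, where density is the number of peaks over the distance between the outermost peaks of any list (13.7 Mb on III). Replicate 2 had 53.4 peaks per Mb on III and 31.7 to 37.5 on each of the others. Replicate 1, with fewer peaks throughout, had 22.9 per Mb on III and 11.2 to 17.4 on the others. The ratio of the density on III to that of the other 5 chromosomes together was 1.56 in the combined list, 1.55 in replicate 2 and 1.58 in replicate 1. Among combined peaks that overlapped both replicates it was 1.60. Peaks are not replicates and each replicate has a single list, so no test of this difference was run. The densities were not adjusted for the number of genes on a chromosome, which was not analysed here.

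In the combined list the surplus was found among peaks of every strength. When all combined peaks were ranked by q-value and divided into 10 classes of equal size, III held between 16.5% and 23.1% of each class, above its 13.8% of the total distance spanned. In replicate 1 the share was between 17.3% and 24.2% in the 9 stronger classes, but 12.7% in the weakest, below the share of the distance. Of the first 50 peaks, 8 were on III in the combined list and 11 in replicate 1, and of the first 10, 1 was in the combined list and 0 in replicate 1. III held 22 of the first 100 peaks of the combined list, 21 of the first 100 of replicate 2 and 26 of the first 100 of replicate 1. The median log10 q-value on III was -5.58 in the combined list and -5.45 in replicate 1, against medians of -5.57 on X to -5.30 on IV in the combined list and -5.49 on X to -4.83 on I in replicate 1. In the combined list 131 peaks on III (18.1%) had a q-value under 1e-10, near the 16.8% on the other chromosomes. On III 34 peaks (4.69%) had one under 1e-20, a class not counted for the others.

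Long peaks were a small share of the peaks on III. Combined peaks on III had a median width of 279 bp, with quartiles of 155 and 428 bp, compared with medians of 278 bp on I, 289.5 bp on II, 291 bp on IV, 302 bp on V and 369 bp on X. In replicate 1 the median of 324 bp on III was within the range of the others, which ran between 315.5 and 429 bp. In the combined list 17 of 725, or 2.34%, were 1000 bp or longer, against 3.36% to 6.83% on each of the other chromosomes. In number they were not fewer for the distance than on I, with 17 over 13.7 Mb on III and 18 over 14.9 Mb on I. The others had 24 over 15.2 Mb (II), 23 over 17.3 Mb (IV), 36 over 20.9 Mb (V) and 37 over 17.5 Mb (X). III also had the smallest share of long peaks in replicate 2, at 2.19% against 3.18% to 6.67%, and in replicate 1, at 1.59% against 3.12% to 7.47%. At the other end, 70 combined peaks on III were under 50 bp, or 9.66%, which is within the range of 5.35% to 10.0% on the other chromosomes. Width went with strength: across the 725 peaks, Spearman's rho between width and −log10 q was 0.70, a description of peaks that share their libraries and their caller. Because q-values and widths move together, a long peak is also, in general, a strong one.

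**Figure D1:**
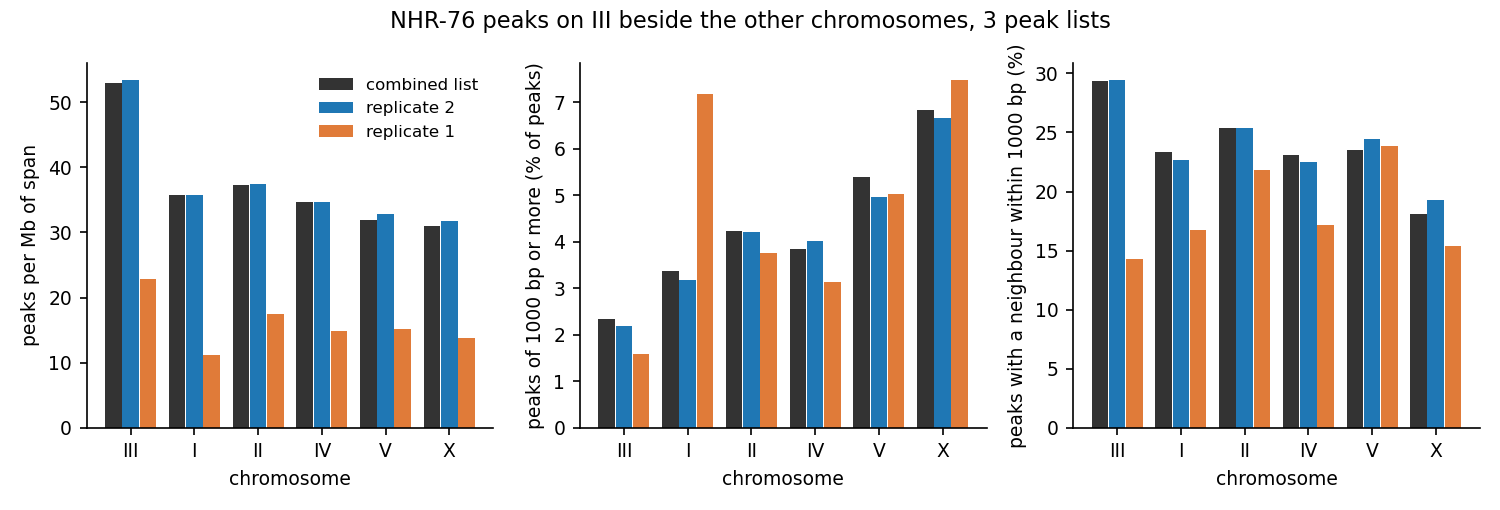
Peaks per Mb of span (left), share of peaks of 1000 bp or more (middle) and share of peaks with a neighbour within 1000 bp (right), as bars for chromosome III and for each other chromosome in the combined, replicate 2 and replicate 1 lists. III has the highest density in each list (52.9, 53.4 and 22.9 peaks per Mb) and the smallest share of long peaks, but its neighbour share is the highest in 2 lists and the lowest in replicate 1.

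The strongest peak on III lay at 832775 to 836501, in the left arm, and was the longest of the chromosome at 3727 bp. Its q-value was 2.49e-74 in the combined list and in replicate 2, where it ranked 9 and 8 among all peaks of the list. In replicate 1 it was split into a peak of 1172 bp at 833030 to 834201, with a q-value of 1.18e-13, and one of 1532 bp at 834882 to 836413, with a q-value of 1.02e-30. These pieces covered 72.6% of the site, and the right one had the smaller q-value. It also stood alone, the nearest other combined peak being 49227 bp away.

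The second peak of III, at 7736438 to 7738446 near the middle of the chromosome, was a single peak in each list. Its width was 2009 bp and its q-value 3.67e-60 in the combined list and replicate 2. In replicate 1 its width was 1840 bp, the longest peak on III there, and its q-value 1.10e-32. The third, at 3866836 to 3867891, was the strongest peak of III in replicate 1, with a q-value of 1.15e-35 over 803 bp and rank 11 in the list. In replicate 2 that site measured 1056 bp with a q-value of 5.16e-58. The order of the leading sites on III differed between the replicates, and none of these values has an error of its own.

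A pair of the 5 strongest peaks on III sat close together. The peak at 1924763 to 1925634 had a combined q-value of 2.15e-57, and that at 1920952 to 1921683 one of 9.48e-50, with 3079 bp and 1 weaker peak between them. In replicate 2 these peaks had q-values of 2.15e-57 and 8.49e-51. In replicate 1 they had q-values of 1.46e-34 and 2.24e-29 and ranked 14 and 25. Both were thus among the strongest peaks of either replicate.

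The other strong sites were spread over the chromosome. In the right arm, the peak at 13463999 to 13465434 had a q-value of 5.05e-47 in the combined list, 7.12e-47 in replicate 2 and 5.05e-28 in replicate 1. Further inward, the peak at 11693713 to 11695342 had a q-value of 2.25e-40 in the combined list and replicate 2. It was split in replicate 1 into a piece with a q-value of 3.63e-18 and a small one of 200 bp with a q-value of 2.85e-05. Some 9511 bp to its right followed the peak at 11704854 to 11705780, with q-values of 9.04e-38 in replicate 2 and 1.08e-22 in replicate 1. Among the 15 strongest peaks on III, 6 had another of the 15 within 20 kb. The third such pair was 7718255 to 7718746, with q-values of 1.70e-36 in replicate 2 and 2.35e-22 in replicate 1, which lay 17691 bp from the second-strongest peak.

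The remaining 6 of the 15 lay at 12612265 to 12612830, 7854376 to 7854809, 10711090 to 10712089, 4899182 to 4900126, 10758827 to 10759447 and 4281898 to 4282508. In replicate 2 these 6 had q-values between 6.15e-37 and 9.48e-31. In replicate 1 their q-values were between 1.70e-25 and 9.44e-19. All 15 overlapped a peak in both replicates, and all 15 had the smaller q-value in replicate 2. They were between 434 and 3727 bp wide, ranked between 9 and 76 in the combined list and no lower than 75 in replicate 2 and 70 in replicate 1, and 5 lay in the left, 4 in the central and 6 in the right one of 3 equal segments.

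**Figure D2:**
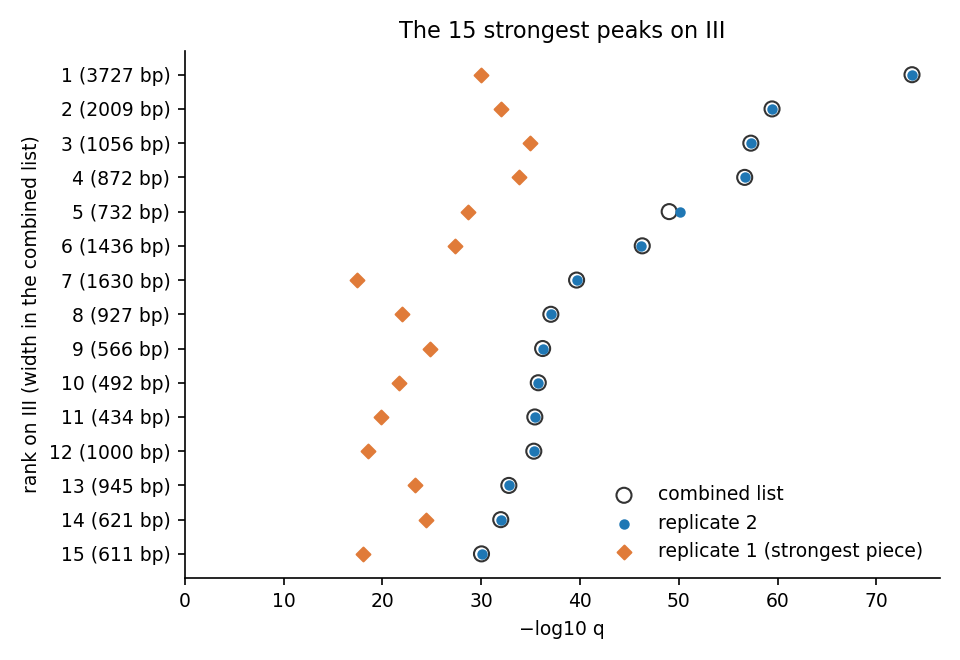
The −log10 q-value (x axis) of the 15 strongest combined peaks on III, ordered by rank with their width (y axis), in the combined list (open circles), replicate 2 (blue dots) and replicate 1 (orange diamonds, the strongest overlapping piece). The open circles and the blue dots nearly coincide, and each diamond lies to their left, for the first peak with a q-value of 2.49e-74 in the combined list against 1.02e-30 in replicate 1.

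Nearly every replicate 1 peak on III was met again in replicate 2, whereas the minority of the longer replicate 2 list had a replicate 1 counterpart. With an overlap of at least 1 bp, 302 of 731 replicate 2 peaks on III overlapped replicate 1 (41.3%, 95% Wilson interval 37.8 to 44.9), beside 40.0% of the whole list. Of 314 replicate 1 peaks on III, 306 overlapped replicate 2 (97.5%, 95.1 to 98.7), beside 96.5% of the whole list. The shares depended on list length: when each list was cut to the number of peaks in the shortest, 76.8% of replicate 2 peaks on III overlapped replicate 1 and 82.8% of replicate 1 peaks on III overlapped replicate 2. In the combined list 299 of 725 peaks overlapped replicate 1 (41.2%, 37.7 to 44.9), beside 40.4% of the whole list. Overlap with replicate 2 was found for 717 combined peaks (98.9%, 97.8 to 99.4), beside 98.6% of the whole list. These shares on III were therefore near those of the lists as a whole. Of the other chromosomes, I had the lowest share of combined peaks in replicate 1, at 28.6%, and the other 4 had 40.8% to 44.1%. These intervals cover counting error only.

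Combined peaks on III met in replicate 1 were stronger and wider than those that were not. The 299 that overlapped replicate 1 had a median q-value of 6.59e-10 and a median width of 405 bp, whereas the 426 others had a median q-value of 3.29e-05 and a median width of 197 bp. Of the 70 peaks under 50 bp, 2 overlapped replicate 1. A shared stretch of 1 bp counts as overlap, so wider peaks meet the rule more easily. The part of this in the width difference was not tested. By class of strength the share on III was 100% in the strongest class (74 of 74), 50.0% in the fourth and 1.30% in the weakest (1 of 77). The same classes on the other chromosomes had 99.0%, 54.6% and 2.79%, and in each of the 10 classes the interval on III held the value of the other chromosomes.

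**Figure D3:**
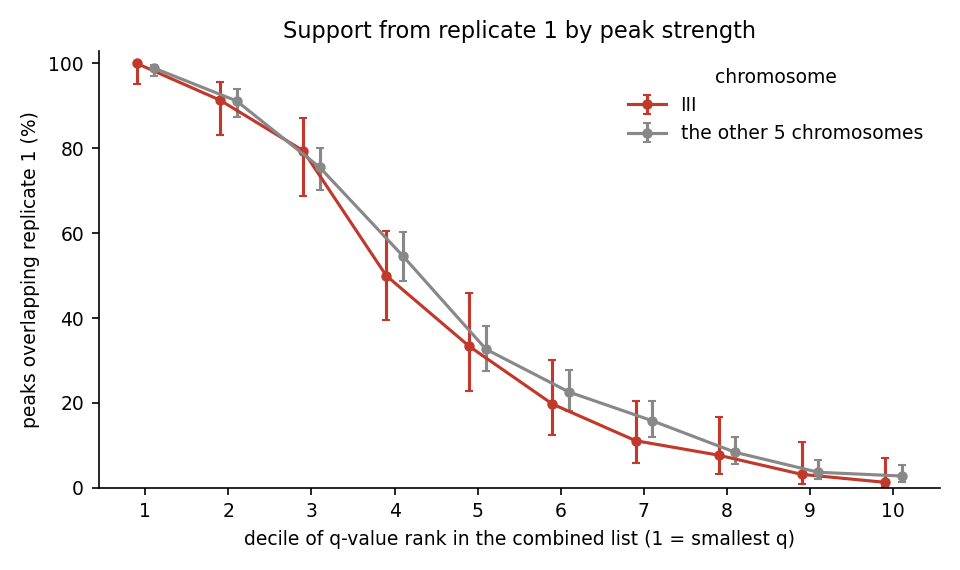
Share of combined peaks that overlapped replicate 1 (y axis, %, bars are 95% Wilson intervals) in each of 10 classes of q-value rank in the whole combined list (x axis, 1 is the strongest), for III and for the other 5 chromosomes pooled. The share on III is 100% in the first class and 1.30% in the last, and the lines run close together.

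The strongest combined peak on III with no replicate 1 counterpart lay at 9807380 to 9808614. It was 1235 bp wide in the combined list and in replicate 2, where its q-value was 1.60e-13, and ranked 83 among the peaks of III. The next were at 8984521 to 8985604, with a q-value of 4.15e-12, and at 8518503 to 8519085, with one of 1.21e-11. The fourth and the fifth were at 12599646 to 12600117 (q-value 2.21e-11) and 4498543 to 4499057 (q-value 8.94e-11). The 82 strongest combined peaks on III thus all overlapped a replicate 1 peak. At the end of the list, the 3 weakest combined peaks on III shared a q-value of 0.000378, were 98 to 132 bp wide and had no replicate 1 counterpart.

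In the other direction, 8 replicate 1 peaks on III had no counterpart in replicate 2, and none of these 8 had one in the combined list. Their median width was 117 bp, against 328.5 bp for the 306 that overlapped replicate 2. The strongest, at 10763407 to 10763517, was 111 bp wide and its q-value was 2.09e-07. Next came the peak at 1299607 to 1300474, which at 868 bp was the widest of the 8, with a q-value of 2.68e-07. It lay 97175 bp from the nearest other replicate 1 peak. Those at 9853383 to 9853531, 8653431 to 8653659 and 8377030 to 8377106 had q-values between 7.69e-06 and 1.93e-05.

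Sites present in both replicate lists were ranked alike, with the limit that the lists may share reads. Across 306 replicate 1 peaks on III, each set against its overlapping replicate 2 peak of smallest q, the q-values had a Spearman's rho of 0.79, a description across peaks without a p-value. For 295 of these the overlap was exclusive on both sides. Replicate 2 had the smaller q-value in 285 of the 295 (96.6%, 95% Wilson interval 93.9 to 98.1) and the wider peak in 262 (88.8%, 84.7 to 91.9). Both intervals cover counting error across peaks of a single pair of libraries of unknown depth, not variation between libraries. The 295 sites had a median width of 403 bp in replicate 2, against 327 bp in replicate 1. Their median log10 q-value was -9.09 in replicate 2 and -5.46 in replicate 1. The median difference of the log10 q-values, replicate 2 minus replicate 1, was -3.60, with quartiles of -5.75 and -1.90. The centres of the paired peaks were 20 bp apart in the median and at most 316 bp apart. Pairs were chosen because they overlap, which limits this distance, so it is no separate sign of agreement. The values were not particular to III. On the other 5 chromosomes together rho was 0.78, replicate 2 was wider in 89.7% of pairs and the median centre distance was 21 bp.

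There were 10 paired sites on III that went the other way, with the larger q-value in replicate 2. The largest such change was at 10224449 to 10225341, where the edges were the same in both lists and the q-value was 1.13e-10 in replicate 2 and 1.34e-20 in replicate 1. It ranked 629 in replicate 2 and 54 in replicate 1. At the next, 931226 to 931774 in replicate 1, the left edge also coincided, and the q-value was 2.47e-06 in replicate 2 against 1.22e-11 in replicate 1. The third of these sites, at 7446848 to 7447305 in replicate 1, had edges within 5 bp of each other and q-values of 2.28e-05 in replicate 2 and 1.46e-07 in replicate 1. At the fourth and the fifth, at 13625334 and 5871574, the replicate 2 q-value was 21.1 and 19.8 times that of replicate 1, and the peaks were 141 and 160 bp wide in replicate 2, against 241 and 409 bp in replicate 1. Outside III, replicate 2 had the smaller q-value in 97.7% of 1134 paired sites and the larger one in 26.

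**Figure D4:**
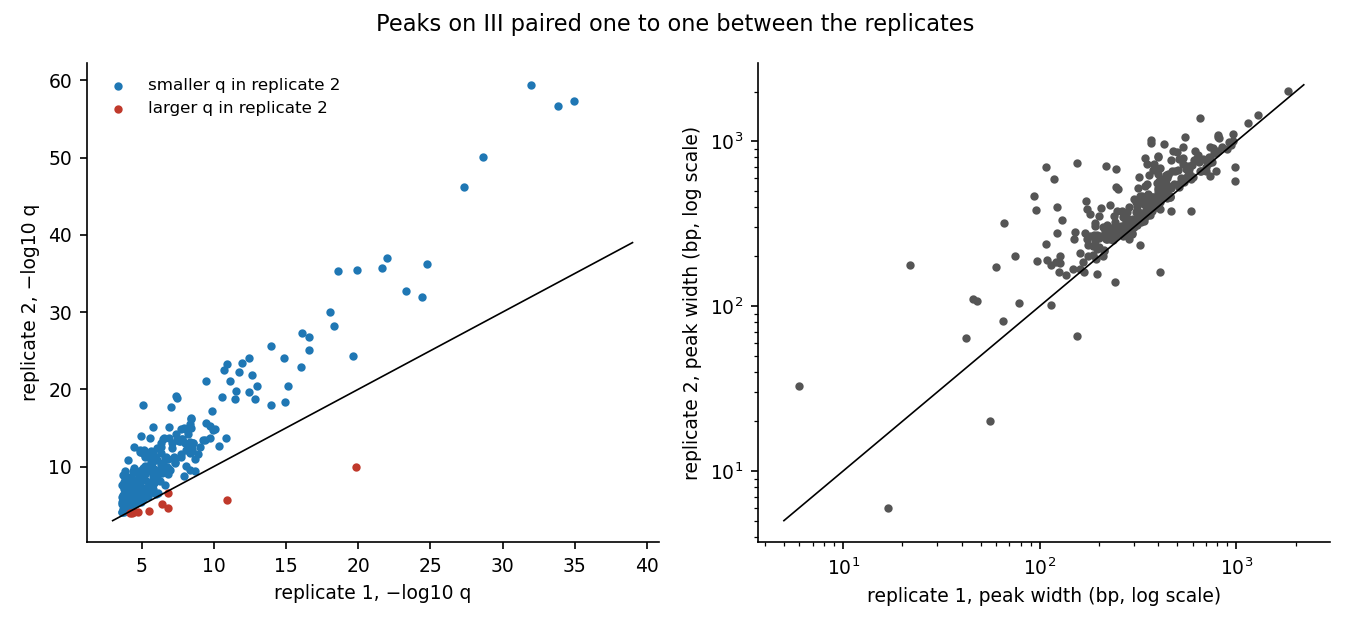
The 295 peaks on III paired between the replicates, with replicate 1 on the x axis and replicate 2 on the y axis; left, −log10 q-values, and right, peak widths in bp on log axes, with the line of equal values. Most points lie above both lines, and the 10 sites with the larger q-value in replicate 2 (red) lie below the line on the left, the farthest at 1.13e-10 in replicate 2 and 1.34e-20 in replicate 1.

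Along the chromosome, peaks were sparse at the left end and dense in the middle. The central one of 3 equal segments of 4.57 Mb held 65.2 combined peaks per Mb, the left segment 42.0 and the right segment 51.5. The central share was 41.1% of the combined peaks on III (95% Wilson interval 37.6 to 44.7), 40.5% in replicate 2 and 41.1% in replicate 1. It was near that of the other autosomes, which had 39.6% to 42.9% in the combined list, whereas X had 26.9%. Peaks of the strongest class followed the same order, with 33 of 74 in the central segment. The median log10 q-value hardly differed between segments, at -5.65 on the left, -5.50 in the centre and -5.55 on the right. Replicate 1 counterparts were found for 39.1% of the combined peaks on the left, 41.6% in the centre and 42.6% on the right. Between the 3 segments, density varied more than the share with a replicate 1 counterpart did.

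In stretches of 1 Mb numbered from the left end, the count of combined peaks was lowest in stretch 1, with 24, and highest in stretch 8, with 78. Replicate 1 also had its maximum in stretch 8, with 36 peaks, but its minimum of 10 was in stretch 3. In stretches 3 and 4 only 27.8% and 27.9% of the combined peaks overlapped replicate 1, against 54.2% in stretch 1, 53.7% in stretch 5 and 56.2% in stretch 14. Stretch 4 combined many peaks (61) with the smallest median width of any stretch, 204 bp. Peaks covered 27.6 kb of stretch 8 and 8.54 kb of stretch 3 in the combined list. With 24 to 78 peaks in each stretch, most of the intervals of these shares overlapped.

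**Figure D5:**
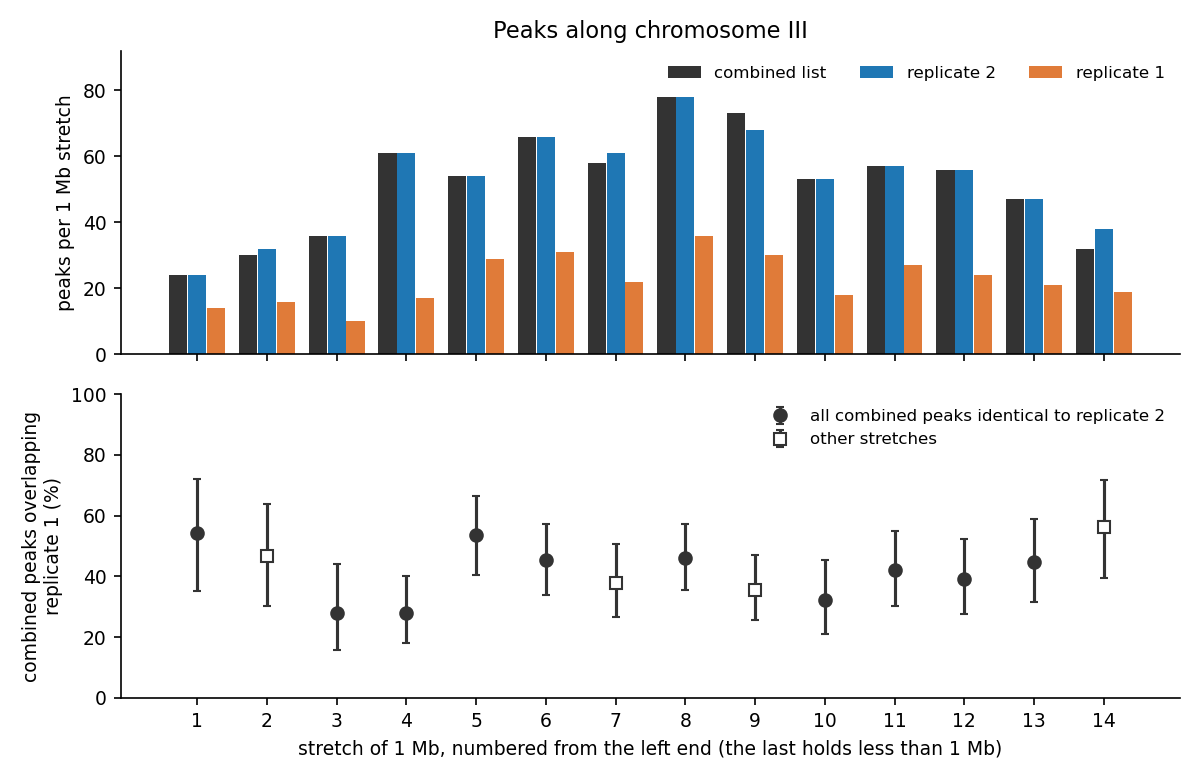
Top, number of peaks in each 1 Mb stretch of III, numbered from the left end, in the combined, replicate 2 and replicate 1 lists. Bottom, share of combined peaks in the stretch that overlapped replicate 1, with 95% Wilson intervals; filled circles are stretches where each combined peak is identical to a replicate 2 peak, open squares the other stretches. Counts run between 24 and 78 in the combined list, and the lowest shares are in stretches 3 and 4.

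Long gaps without peaks interrupted this pattern. The longest gap between neighbouring combined peaks on III was 228742 bp, at 2172462 to 2401203, against a median gap of 6796.5 bp. The second was 214205 bp, at 9173049 to 9387253. Neither held a peak of replicate 2 or of replicate 1. In stretches 3 and 10, where these gaps lie, each combined peak is identical to a replicate 2 peak. Agreement of those lists there is therefore no separate observation. In the third gap, of 193227 bp at 6615250 to 6808476, replicate 1 had none and replicate 2 had 1 peak reaching in at the edge. The 3 longest gaps of replicate 1, of 424.8, 352.4 and 279.8 kb, each spanned one of these and held 8, 10 and 6 replicate 2 peaks. Since 306 of 314 replicate 1 peaks on III overlapped replicate 2, few could fall in gaps of replicate 2. Gaps over 100 kb numbered 15 in the combined list. Whether reads can be placed uniquely in these gaps was not analysed here.

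Many peaks on III had a close neighbour in the combined list. Another peak lay within 1000 bp, edge to edge, for 213 of 725 combined peaks (29.4%, 95% Wilson interval 26.2 to 32.8), beside 24.1% of the whole list. In replicate 2 the count was 215 of 731 (29.4%), beside 24.2% of the whole list. In replicate 1 it was 45 of 314 (14.3%, 10.9 to 18.6), beside 18.4% of the whole list. III thus had the highest share of the 6 chromosomes in the combined and replicate 2 lists and the lowest in replicate 1. Among combined peaks that overlapped both replicates, the share on III was 13.7%, again the lowest of the 6, against 14.6% to 25.9% on the others. More peaks per Mb bring more neighbours, and the part of peak density in these shares was not tested.

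The 213 peaks with a neighbour formed 91 clusters, of which 67 were pairs. They were wider than the 512 lone peaks, with a median of 361 bp against 257 bp, and somewhat stronger, with a median log10 q-value of -6.06 against -5.39. Their share in replicate 1 was 42.3%, against 40.8% for lone peaks. Of the 91 clusters, 42 had exactly 1 member that overlapped replicate 1, 27 had none and 22 had 2 or more. The largest q-value of a cluster was in the median 3.81 log10 units above its smallest.

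The cluster with the most peaks was at 6359170 to 6362821, with 5 peaks in 3652 bp. Its outer right peak, at 6362206 to 6362821, was the strongest, with a q-value of 8.31e-12 in the combined list and 2.32e-07 in replicate 1. The peak at 6359894 to 6360493 had 8.33e-08 in the combined list and 2.01e-06 in replicate 1. The other 3 had combined q-values between 2.72e-06 and 7.82e-05 and no replicate 1 counterpart, and one of them was only 10 bp wide.

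The second cluster, of 4 peaks at 11703087 to 11706870, contained the strong peak at 11704854 already described. Its right neighbour, at 11706236 to 11706870, had a q-value of 2.68e-12 in the combined list and 6.58e-06 in replicate 1. Both left neighbours, with combined q-values of 6.67e-07 and 0.000178, were not met in replicate 1. A strong peak was thus flanked by weaker ones on both sides.

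The third cluster, of 4 peaks at 8865132 to 8868564, had 3 members in replicate 1. Its outer peaks were the strongest, with combined q-values of 5.00e-10 on the left and 4.25e-13 on the right, and replicate 1 values of 1.76e-07 and 8.34e-08. Between them lay a peak with a q-value of 5.56e-06 that replicate 1 also held, at 9.55e-05, and one of 604 bp with a q-value of 1.24e-05 that it did not.

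Some sites, between 705 and 3727 bp wide, were split in replicate 1. On III, 5 combined peaks were covered by 2 replicate 1 peaks each, and 0 of the replicate 1 peaks overlapped 2 combined peaks, although 1 overlapped 2 replicate 2 peaks. Beside the sites at 832775 and 11693713, these were at 5939308 to 5940861, 10339013 to 10339717 and 8799596 to 8800915. At 5939308 the combined peak had a q-value of 5.80e-26, and the replicate 1 pieces had 4.56e-16 and 2.05e-06. At 10339013 the combined q-value was 1.28e-15, and those of the pieces were 1.74e-05 and 0.000124. Replicate 1 covered between 66.3% and 82.2% of each of the 5 sites. Split sites were not particular to III. In replicate 2, 5 of 731 peaks on III lay over 2 or more replicate 1 peaks, beside 31 of 2945 elsewhere.

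On III the combined list was for the most part the replicate 2 list. Of 725 combined peaks, 536 (73.9%) had the edges and the q-value of a replicate 2 peak, beside 72.1% of the whole list, and 0 of 725 had those of a replicate 1 peak. In 10 of the 14 stretches of 1 Mb, with 532 peaks, each combined peak was identical to one of replicate 2. In the other 4, stretches 2, 7, 9 and 14, only 4 of 193 peaks were. There the widths of the paired peaks differed, nearly all in 1 direction within a stretch. Combined peaks were narrower in stretch 2 (30 of 30 pairs), stretch 7 (53 of 54) and stretch 14 (28 of 30), and wider in stretch 9 (63 of 64), with a median difference between 8.5 and 12.5 bp. Some differed by more, such as that at 8984521, with 1084 bp in the combined list and 980 bp in replicate 2. Peak counts, combined against replicate 2, were 30 and 32, 58 and 61, 73 and 68, and 32 and 38 in these stretches. On III as a whole, 16 of 731 replicate 2 peaks had no combined counterpart, beside 94 of 3676 in the whole list. The shares with a counterpart were 97.8% and 97.4%. The 8 combined peaks on III that overlapped neither replicate were all in stretch 9. The strongest of them, at 8172405, covered 1 bp and had a q-value of 1.27e-05. The next were 517 bp at 8678092 to 8678608, with a q-value of 3.23e-05, and 8 bp at 8652416 to 8652423, with one of 5.30e-05. Values of the combined and the replicate 2 lists on III are therefore not 2 independent measurements, and whether those of replicates 1 and 2 are was not tested.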

How the data were processed

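The deposited files are 3 peak lists, called with PeakSeq on build WormBase WS180, per the file headers and the caller named in each line. The score column deposited by the authors is a q-value for each peak. Not given in the sources used here are the aligner, the caller's version, its threshold, the part the inputs played and how the lists were combined. Without read counts in the lists, depth is unknown, and list length may reflect depth or threshold.

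Samples were grouped by title, although the free-text descriptions of the ChIP and input samples conflict with the titles. Peaks were overlapped by at least 1 bp, ranked by q-value over each whole list, and joined into clusters when facing edges were at most 1000 bp apart. Shares carry 95% Wilson intervals. No hypothesis test was run, since each replicate has 1 list and peaks are not replicates. Named peaks follow fixed rules: on III, the 15 of smallest q, the 5 widest, the 5 strongest combined peaks not in replicate 1, the 5 strongest replicate 1 peaks not in replicate 2, the 3 largest clusters and gaps, the 5 largest increases of q, the 3 strongest in neither replicate and the 3 weakest. Sites split in replicate 1 were named after their values were seen. Members and rules were chosen with earlier results of these data known. No genome or annotation of the build was used, so genes and sequences were not analysed here. Overlap and cluster steps were tested on simulated data. Computations ran in Python 3.11.15 with scipy 1.17.1, pandas 2.3.3, matplotlib 3.10.9 and numpy 2.4.6.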

Additional observations from a re-analysis of the deposited data

How the results depend on the processing

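Of 59 alternative values for 13 results on III, 31 stayed within the spread allowed and 28 moved. These shares and counts carry no direction, but the neighbour share on III relative to the whole list changed direction, at 29.4% against 24.1% in the combined list and 14.3% against 18.4% in replicate 1. The causes were not tested beyond what each setting does by construction. The share of combined peaks overlapping replicate 1 was 36.8% under a reciprocal overlap of 50%, 36.6% with centres within 100 bp, 77.6% with lists of equal length and 44.9% without peaks under 50 bp. That of replicate 2 peaks overlapping replicate 1 was 36.0%, 35.8% and 76.8% under the first 3 of these, and that of replicate 1 peaks overlapping replicate 2 was 83.8%, 83.4% and 82.8%. Overlap of combined peaks with replicate 2 was 95.7% under the reciprocal rule and 97.0% by centres. In the better-scoring 50% of the combined list, III had 372 peaks, a density ratio of 1.61, 20.2% with a neighbour and a median width of 396 bp. Among combined peaks overlapping both replicates these values were 299, 1.60, 13.7% and 405 bp. Without peaks under 50 bp the density ratio was 1.52. The neighbour share was 16.6% within 500 bp and 44.7% within 2000 bp. With either replicate list in place of the combined list, the count was 314 to 731, the density ratio 1.55 to 1.58, the neighbour share 14.3% to 29.4% and the median width 278 to 324 bp; replicate 1 gave the lower count and neighbour share. Spearman's rho was 0.81 among exclusive pairs. Added after the data were seen, the share overlapping replicate 1 was 41.2% in stretches identical to replicate 2 and 41.5% in the others. No paired analysis was possible because the input samples have no peak list. The lists give no depth, which limits any reading of their lengths.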
